A study of Danio rerio with 6 samples.

Results

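Some of the open chromatin found in endothelial nuclei of the zebrafish embryo, and not called elsewhere in the embryo, lay in short groups along the chromosomes. These grouped regions are described here. They came from 6 ATAC-seq peak lists (ATAC-seq marks accessible DNA by transposase insertion). Overlapping peaks of the lists, by 1 bp or more, were merged into 187225 union regions. Of the 180773 union regions on the 25 numbered chromosomes, 2250 had a peak in 3 of 3 GFPplus lists and in 0 of 3 GFPminus lists (1.24%) and are called GFPplus-only. A GFPplus-only region was a member of a cluster when its midpoint lay within 10 kb of the midpoint of another. This gave 274 members in 132 clusters, or 0.152% of the union regions and 12.2% of the GFPplus-only regions, and left 1976 isolated GFPplus-only regions. The members were chosen by the peak calls of all 6 lists and by position, so their presence in GFPplus and absence from GFPminus lists is a description with no test.

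The embryos carried the transgene Tg(fli1a:egfp) and were taken at 24 hours post fertilization. The GFPplus group (3 libraries) held GFP-positive nuclei, which the labels call endothelial, and the GFPminus group (3 libraries) held the GFP-negative nuclei of such embryos, which the labels call non-endothelial. Both groups carried the same transgene, and each library was made from 20000 sorted nuclei, with the replicates collected on separate occasions. The transgene uses regulatory sequence of fli1a, an ETS transcription factor gene, which is known to be active also in some neural crest derivatives of the pharyngeal arches, so the sort need not be purely endothelial.

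Enhancers are short stretches of open DNA that bind transcription factors and raise the activity of a gene that may lie at a distance. Genes that define a cell type often have several enhancers in a row, which open together in that cell type. In endothelial cells such elements are known to be bound by ETS factors together with forkhead, GATA and SOX factors. Genes, DNA sequence and motifs around the members were not analysed here, so the label of endothelial specificity rests on the sort and could not be checked against marker genes. Members are named by position on the Zv9 (danRer7) build, in coordinates counted from 1.

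The lists held 50396 to 73716 peaks in GFPplus and 33437 to 113476 peaks in GFPminus libraries, and the read depth behind them is unknown. A region with no peak in a list may still have held reads. GFPminus replicates 1 and 2 had the longest lists and GFPminus replicate 3 the shortest, which bears on how strictly the absence of a GFPminus peak was tested. The lists give for each peak the fold enrichment of its summit over the caller's background, and its −log10 p. These are the authors' own values and are used here to describe and rank peaks within a list. The scale of the fold differs between lists (the median over regions called in all 6 lists was 6.77 to 7.46 in GFPplus and 6.28 to 7.78 in GFPminus libraries), so folds of different libraries stand side by side below as deposited, and groups are compared by rank.

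The clusters were small. Pairs made up 124 of the 132 clusters, 7 clusters had 3 members and 1 had 5. From the first to the last member they spanned a median of 5594 bp (lowest 597 bp, highest 23501 bp), and in the median cluster the members covered 14.9% of the span. Added up, the spans came to 731 kb and the members to 104 kb. GFPminus-only regions (3 of 3 GFPminus and 0 of 3 GFPplus lists, 0.865% of the union regions) had a smaller clustered share: 89 of 1563 (5.69%) lay in 43 clusters, 40 of them pairs and 3 with 3 members. The classes also differ in size, and neither the difference between their clustered shares nor its cause was tested.

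The number of members depended on which lists were asked for. Without GFPplus replicate 2 there were 738 members, without GFPplus replicate 3 there were 646, without GFPminus replicate 1 there were 509 and without GFPminus replicate 2 there were 458, where fewer lists have to be met. In each of these cases at least 272 of the 274 members still lay in clusters, which a rule with fewer lists to meet largely gives by construction. Without GFPplus replicate 1 there were 344 members, and 265 of the 274 still lay in clusters. Without GFPminus replicate 3 there were 294, and all 274 did. With all lists shortened to the best 33437 peaks there were 284 members, but only 72 of the original 274 (26.3%) were among the clustered regions then and 125 were still GFPplus-only. The 274 members are therefore those of the lists as deposited.

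Distances between neighbours were spread over the whole range allowed. Of the 142 neighbouring pairs, 22 had midpoints up to 1 kb apart, 8 were 1 to 2 kb apart, 40 were 2 to 5 kb apart and 72 were 5 to 10 kb apart, with a median of 5024 bp. Per kilobase of distance, the bin up to 1 kb thus held the most pairs and the next bin the fewest. Some of the closest neighbours nearly touched: in 10 pairs the edges were less than 200 bp apart, and in 17 pairs at most 500 bp, the smallest gap being 6 bp. When GFPplus-only regions with edges at most 500 bp apart were counted as 1, 242 members in 117 clusters remained.

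**Figure D1:**
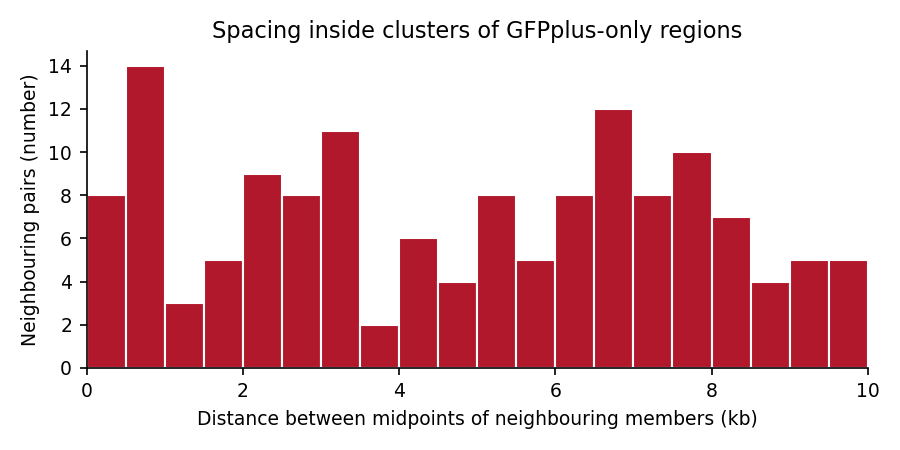
Histogram of the distance between midpoints of neighbouring members (x axis, kb, bins of 0.5 kb) against the number of neighbouring pairs (y axis) for the 142 pairs. The fullest bin lies below 1 kb, and the 72 pairs beyond 5 kb fill the right side up to the 10 kb limit.

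No neighbour distance lay between 9926.5 and 10154 bp. The members nearest to it from inside had a neighbour at 9926.5 bp (chromosome 4, 18426415 to 18426704), at 9923 bp (chromosome 20, 21495749 to 21496489) and at 9861.5 bp (chromosome 1, 17590226 to 17590494). Their fold enrichment was 4.98 ± 0.22, 5.48 ± 0.98 and 3.95 ± 0.64 (SD, n = 3 GFPplus libraries). The regions nearest to it from outside had their neighbour at 10154 bp (chromosome 9, 29405546 to 29406108, fold 6.31 ± 2.70), at 10228 bp (chromosome 19, 29184534 to 29185002, fold 9.37 ± 1.6) and at 10503 bp (chromosome 20, 22304886 to 22305287, fold 5.06 ± 0.70; SD, n = 3 each).

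The cluster with most members lay on chromosome 6 at 33706263 to 33729763. Its 5 members were 289 to 370 bp wide and lay 2342.5 to 7798 bp apart. The first member (33706263 to 33706612) had a fold enrichment of 7.25, 5.02 and 8.65 in GFPplus replicates 1, 2 and 3, and the second (33712336 to 33712705) of 9.32, 6.24 and 6.6. The third (33714690 to 33715036) was the weakest in each of the 3 libraries, at 4.36, 3.54 and 5.40. The fourth (33721652 to 33721940) had 10.1, 7.11 and 5.85. The fifth (33729425 to 33729763) had 9.91, 7.78 and 9.07, the highest mean of the cluster (8.92 ± 1.07, SD, n = 3). No peak of a GFPminus list lay anywhere inside the span. The span held 3 more regions, each with a peak in 1 or 2 GFPplus lists and in no GFPminus list. The nearest GFPminus peaks lay just past the fifth member, in a region that was called in 3 GFPplus and 2 GFPminus lists.

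**Figure D2:**
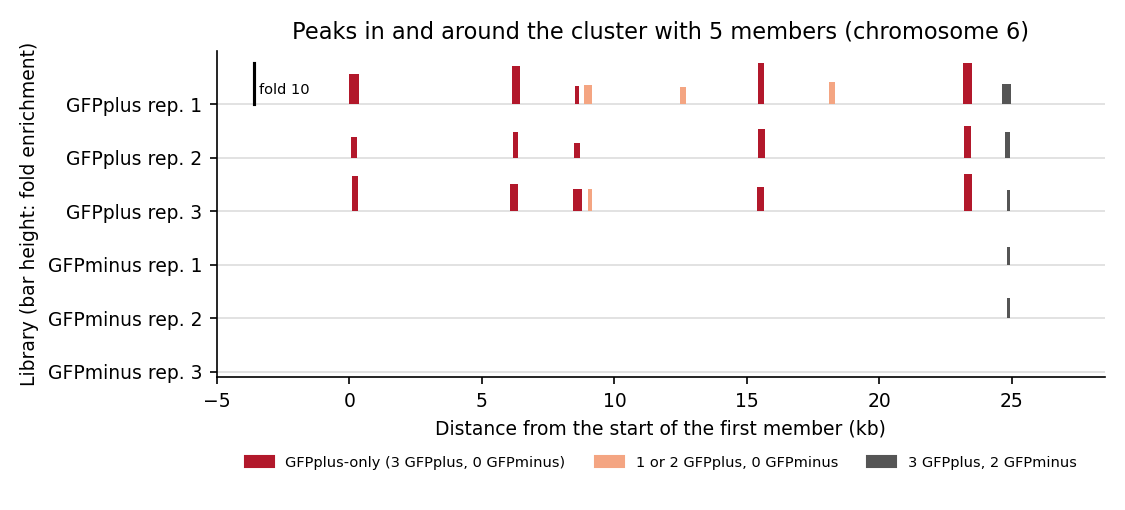
Peaks of the 6 lists in and around the cluster with 5 members on chromosome 6, by distance from the start of its first member (x axis, kb), with 1 row per library and bar height giving the fold enrichment at the summit (scale bar, fold 10). The 5 members stand as columns of bars in the 3 GFPplus rows, while the GFPminus rows are empty over the span and 2 of them have a peak past its end.

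The 7 clusters with 3 members were on chromosomes 2, 10, 16 and 23, and 3 of them on chromosome 23. The strongest by its weakest peak was on chromosome 16 at 55049038 to 55057414. Its members had folds of 8.31 ± 1.59, 8.28 ± 2.06 and 5.73 ± 1.23 (SD, n = 3), the last of them only 966.5 bp from the second. On chromosome 23 the cluster at 8930463 to 8946798 had folds of 6.84 ± 1.62, 7.29 ± 2.26 and 4.19 ± 0.16, that at 5823216 to 5828024 had 4.47 ± 0.66, 6.55 ± 1.74 and 4.04 ± 0.46, and that at 23484195 to 23492159 had 4.34 ± 0.58, 4.76 ± 1.31 and 5.43 ± 0.63 (SD, n = 3 each). In the clusters that begin at 5823216 and 23484195, members 478.5 and 372 bp apart by midpoint were joined by a member several kilobases away.

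On chromosome 10 the clusters of 3 spanned 25094500 to 25111755 and 232959 to 240488. In the first the middle member was strongest (6.83 ± 1.46, against 5.0 ± 0.97 before and 3.85 ± 0.42 after it). In the second the last member was strongest (6.91 ± 1.54, against 4.82 ± 0.87 and 4.64 ± 1.82; SD, n = 3 each). The second held no other union region. The cluster on chromosome 2 at 473780 to 485016 was the weakest of the 7 by its lowest −log10 p (3.77), with member folds of 4.0 ± 0.71, 3.65 ± 1.07 and 5.09 ± 1.26 (SD, n = 3). Between its members lay a stronger region at 483333 to 483764, where the fold was 8.12, 5.08 and 7.06 in the 3 GFPplus libraries, against 3.36 and 2.83 in GFPminus replicates 1 and 2. It was no member because of those GFPminus peaks.

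Clusters themselves were rarely close together. Another cluster lay within 100 kb of 8 of the 132 clusters, so that there were 4 sets of neighbouring clusters. On chromosome 16 the pair at 21003702 to 21005772 was followed by the pair at 21037168 to 21041138, whose members had folds of 8.34 ± 1.04 and 7.84 ± 1.21 (SD, n = 3). The other sets were on chromosome 6 (93282 to 94378 and 149735 to 151028), chromosome 14 (14012741 to 14020881 and 14043880 to 14044862) and chromosome 16 (30878582 to 30879419 and 30923101 to 30930610). An isolated GFPplus-only region lay within 50 kb of the centre of 40 clusters.

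Members were found on 24 of the 25 numbered chromosomes. Chromosome 23 had the largest share, with 27 of its 106 GFPplus-only regions clustered (25.5%), followed by chromosome 20 with 24 of 116 (20.7%) and chromosome 10 with 20 of 109 (18.3%). Chromosome 22 had 0 of 53. On chromosome 9 only 4 of 97 (4.12%) were clustered. These shares are given without a test, since regions of a chromosome are not replicates.

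The strongest members by the lowest −log10 p of their 3 peaks were on chromosomes 1, 5, 6, 7, 10 and 14. The first was at chromosome 6, 94086 to 94378, with a −log10 p of 54.6, 42.6 and 34.1 in GFPplus replicates 1, 2 and 3. Its fold enrichment was 6.69, 7.38 and 8.43, and in replicate 1 this was the lowest among the 8 members named here for their −log10 p. Next came chromosome 6, 57974011 to 57974781, with folds of 11.8, 8.35 and 9.85, and chromosome 5, 74793887 to 74794259, with 9.19, 8.53 and 8.12. In both, all 3 values were above the median of the members in that library.

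The member at chromosome 1, 46484576 to 46485105, had the highest mean fold, with 15, 9.43 and 11.5 (mean 12 ± 2.84, SD, n = 3). It was followed in −log10 p by chromosome 7, 56760507 to 56760980 (fold 9.21 ± 1.73), the fifth member of the largest cluster, chromosome 10, 239745 to 240488 (6.91 ± 1.54), and chromosome 14, 14043880 to 14044202 (8.69 ± 1.88; SD, n = 3 each). The widest member (chromosome 5, 24076440 to 24077481, 1042 bp) was the least even of those named. Its peak was 1042 bp wide with a fold of 18.8 in GFPplus replicate 1, but 128 bp and 7.34 in replicate 2 and 236 bp and 8.70 in replicate 3. The next widest were at chromosome 15, 24983948 to 24984852 (905 bp), and chromosome 6, 149735 to 150627 (893 bp).

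As a set the members were close to the isolated regions in fold enrichment. Their median fold enrichment was 6.20, 4.56 and 5.68 in GFPplus replicates 1, 2 and 3, against 6.02, 4.52 and 5.44 in the isolated regions. Averaged over the 3 libraries, members reached from 3.16 to 12 (median 5.63), while the highest isolated region reached 15.7 (median 5.37). The clustered minus isolated difference was positive in 3 of 3 libraries and averaged 0.15 ± 0.10 (SD, n = 3, exact two-sided sign-flip permutation p = 0.25, the smallest that 3 libraries allow). It was small beside the spread between regions. When clusters were built with a limit of 5 kb it became −0.043, negative in 3 of 3 libraries (exact sign-flip permutation p = 0.25, the smallest possible). It was 0.014 with peaks under a −log10 q of 5 left out and 0.012 at lists of equal length (exact permutation p = 1 for both). Without GFPplus replicate 3 it was 0.28.

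Ranked by −log10 p within the whole list, members stood at the median percentile 76.4, 55.2 and 59.5 in GFPplus replicates 1, 2 and 3, against 70.0, 48.8 and 53.1 for isolated regions. Of the members, 15%, 2.19% and 5.84% were in the upper 10% of these lists, against 7.54%, 0.81% and 2.73% of the isolated regions. The order was thus the same in the 3 libraries for both measures, over the same regions in each. These ranks are given for the lists as deposited only.

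**Figure D3:**
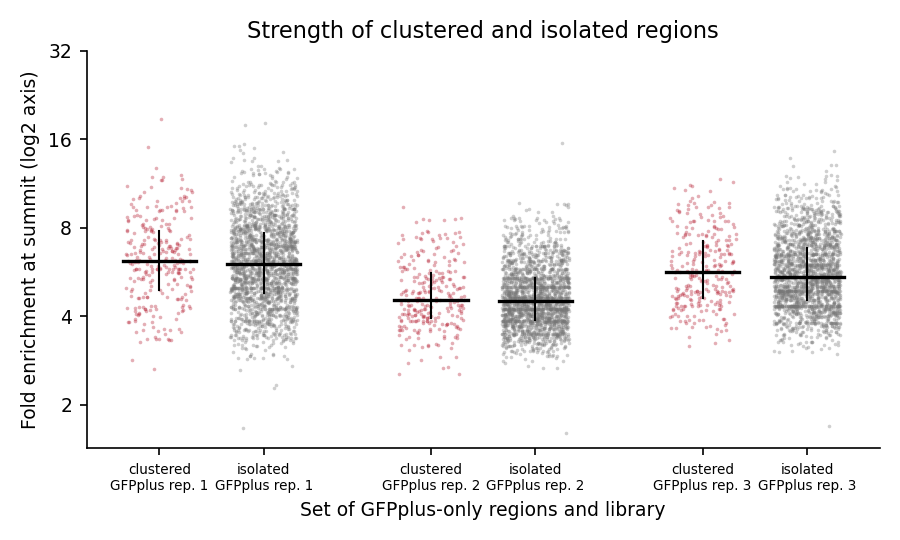
Fold enrichment at the summit (y axis, log2 scale) of the 274 clustered and 1976 isolated GFPplus-only regions in each GFPplus library. Points are regions, horizontal bars medians and vertical bars the range between quartiles; the sets overlap almost completely, with medians of 6.20 and 6.02, 4.56 and 4.52, and 5.68 and 5.44.

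Peaks of members were 315.5, 214.5 and 231 bp wide at the median in GFPplus replicates 1, 2 and 3, against 305.5, 200 and 219 bp for isolated regions, a mean difference of 12.2 ± 2.25 bp (SD, n = 3, exact two-sided sign-flip permutation p = 0.25, the smallest possible). The merged regions did not show this order, with a median width of 345 bp for members (169 to 1042 bp) and 354 bp for isolated regions. At lists of equal length the peak width difference was −1.5 bp, and it was −1.33 bp with a −log10 q of at least 5.

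Median width and fold were lowest for members with the closest neighbours. The 44 members whose nearest member was up to 1 kb away were 317 bp wide at the median, with a median mean fold of 5.32. The 94 members at 1 to 5 kb had 346 bp and 5.53, and the 136 members at 5 to 10 kb had 354 bp and 5.81. In each GFPplus library the median fold had the same order over these classes, for example 4.84, 5.67 and 5.76 in replicate 3. No test was made, since a neighbour within 1 kb also limits how wide a separate region can be.

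The 3 GFPplus libraries placed the summit of a member close to the same position. The merging of overlapping peaks already limits how far apart the summits of a region can lie. The summits lay within a median range of 65 bp (highest 414 bp), and for 194 of 274 members (70.8%) within 100 bp. For isolated regions the median range was 77 bp and the share within 100 bp was 63.4%. Most members (262) had a single peak in each GFPplus list. Across the members, log2 fold enrichment correlated at r = 0.68 between replicates 1 and 2, 0.65 between 1 and 3, and 0.56 between 2 and 3, and across isolated regions at 0.55, 0.59 and 0.45. These are descriptions over 274 and 1976 regions that share the same libraries. GFPplus replicate 1 gave the highest fold for 158 members, replicate 3 for 97 and replicate 2 for 19. Over the regions called in all 6 lists the median fold was 7.46, 6.77 and 6.96 in replicates 1, 2 and 3. What lay behind the counts was not tested.

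Members of a pair were often unequal. In 62 of the 124 pairs the same member had the higher fold in all 3 GFPplus libraries. In the other 62 the order differed between libraries or the folds were tied in a library. The stronger exceeded the weaker 1.23-fold at the median and 2.39-fold at most, and by more than 1.5-fold in 28 pairs. The most unequal pair was the one at chromosome 6, 93282 to 94378, where the member at 94086 had folds of 6.69, 7.38 and 8.43 in replicates 1, 2 and 3 and the other, 855 bp away, 3.53, 2.54 and 3.41. Next in order were the pairs on chromosome 7 (56755149 to 56755369, fold 4.05 ± 0.86, beside the member with 9.21 ± 1.73) and chromosome 6 (57982196 to 57982390, fold 4.46 ± 0.38, beside 9.99 ± 1.71; SD, n = 3). Over the 124 pairs the log2 folds of the first and the second member correlated at r = 0.10, a description with no test.

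In the 3 shortest and the 3 longest pairs the mean folds of members lay between 3.49 and 6.98. The shortest pair, on chromosome 25 at 2860681 to 2861277, had members 6 bp apart with folds of 5.37 ± 1.80 and 6.98 ± 0.78, and was followed by chromosome 15, 20816373 to 20816983 (4.51 ± 1.0 and 3.80 ± 0.33), and chromosome 3, 17267070 to 17267831 (5.71 ± 2.54 and 4.14 ± 0.60; SD, n = 3). The longest pairs were on chromosome 20 at 21495749 to 21506423 (5.48 ± 0.98 and 5.77 ± 2.45), chromosome 4 at 18426415 to 18436612 (4.98 ± 0.22 and 6.07 ± 2.21) and chromosome 1 at 17590226 to 17600328 (3.95 ± 0.64 and 3.49 ± 0.78).

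Other union regions were counted inside the span of each cluster. A short span leaves little room for them, and no stretches of equal length elsewhere were counted. Of the 132 clusters, 76 (57.6%) held no other union region inside the span. The remaining 56 held 106 regions: 36 with a peak in 1 or 2 GFPplus and 0 GFPminus lists, 29 with a peak in 1 or 2 GFPminus and 0 GFPplus lists, 13 in 3 GFPplus and 1 or 2 GFPminus lists, 10 in all 6 lists, 2 that were GFPminus-only and 16 of other mixtures. The clusters with a GFPminus-only region were on chromosome 15 (19407970 to 19416411) and chromosome 20 (28253434 to 28260187), named here after their values were seen.

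A region called in all 6 lists lay inside 10 of the 132 clusters (7.58%), and inside 4 of the 43 clusters of GFPminus-only regions (9.30%). The share was 13.4% without GFPminus replicate 3, where such a region needs 5 lists. The distance from a member to the nearest region of all 6 lists had a median of 16.8 kb (502.5 bp to 241 kb), against 17.8 kb for isolated regions. More than 50 kb away were 45 members (16.4%), against 20.2% of the isolated regions.

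The shared regions inside clusters did not follow a single direction. To compare libraries, the fold of the 19764 regions called in all 6 lists on numbered chromosomes was ranked within each library. Inside the clusters, 4 of 10 shared regions ranked higher in all 3 GFPplus than in all 3 GFPminus libraries, and 2 ranked lower in all 3. Among all shared regions, 10.6% ranked higher and 10.9% lower in this sense. With 10 regions these counts are a description.

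At chromosome 23, 45713433 to 45714169, the shared region had folds of 8.32, 8.43 and 7.37 in GFPplus and of 5.31, 5.44 and 5.14 in GFPminus replicates 1 to 3, between members of 3.95 ± 0.47 and 4.68 ± 0.25 (SD, n = 3). The shared region was thus stronger than either member in each GFPplus library. At chromosome 23, 2333056 to 2333568, the folds were 7.01, 5.32 and 4.98 in GFPplus and 3.03, 4.19 and 3.6 in GFPminus libraries, and the second member of that pair began just beyond it, at 2333705. At chromosome 6, 56015860 to 56016637, the region ranked lower in each GFPplus than in each GFPminus library, with folds of 4.32, 4.05 and 4.16 in GFPplus and 6.48, 5.70 and 4.18 in GFPminus libraries, while the members at either side had 7.08 ± 1.3 and 5.13 ± 0.93 in GFPplus libraries (SD, n = 3). At chromosome 20, 21501910 to 21502592, the folds were 3.95, 6.56 and 4.01 in GFPplus and 11.6, 9.93 and 5.54 in GFPminus libraries, and by rank the groups overlapped, with GFPplus replicate 2 above GFPminus replicate 3 (percentiles 46.4 and 35.8).

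Within 10 kb of a member lay 65 shared regions. Of these, 10 (15.4%) ranked higher and 11 (16.9%) lower in all 3 GFPplus than in all 3 GFPminus libraries, against 13.6% and 13% of the 818 near isolated regions. Their median percentile was 44.0, 45.0 and 48.5 in GFPplus and 47.3, 42.2 and 39.9 in GFPminus replicates 1 to 3 (45.8 ± 2.36 and 43.1 ± 3.79, SD, n = 3). The groups overlapped (difference 2.74, exact two-sided permutation p = 0.4). Without GFPminus replicate 1, where there were 509 members and the shared regions were chosen anew, the difference was −2.02 (exact permutation p = 0.2). With −log10 p ranked in place of the fold it was 10.8 (exact permutation p = 0.1, the smallest possible), and it was 11.9 with a −log10 q of at least 5, 7.75 with regions at most 500 bp apart joined (exact permutation p = 0.1 for both) and 0.010 at lists of equal length (exact permutation p = 1). The settings with a −log10 q of at least 5, with joined regions and at equal length also changed which regions were compared. For the shared regions near isolated ones the means were 47.4 ± 1.23 and 47.5 ± 1.3 (SD, n = 3, exact permutation p = 1).

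The 13 regions with 3 GFPplus and 1 or 2 GFPminus calls inside clusters would have been GFPplus-only but for their GFPminus peaks. GFPminus replicates 1 and 2, the longest lists, gave 11 and 12 of these peaks and GFPminus replicate 3 gave 1. With folds as deposited and not ranked, each GFPplus fold was above each GFPminus fold in 5 of the 13 regions. The scale of the fold differs between lists, and some margins were narrow. At chromosome 20, 8148705 to 8149014, GFPplus replicate 2 had 4.88 against 4.84 in GFPminus replicate 1. At chromosome 23, 8942735 to 8943207, GFPplus replicate 2 had 5.70 against 5.51 in GFPminus replicate 2. In 2 of the 13 there was only 1 GFPminus fold to exceed. The same count was not made over all 9646 regions of this kind, so it describes these 13 only. The regions on chromosome 5 described next were not picked by the rule for named items given below. One of the 5, with only 1 GFPminus fold to exceed, was at chromosome 5, 74789181 to 74789616, between a strong and a weak member. Its folds were 8.03, 6.06 and 7.95 in the 3 GFPplus libraries, against 3.42 in GFPminus replicate 1. Another region, not among the 5, was at chromosome 5, 50048183 to 50048415. Its folds were 6.39, 5.06 and 5.89 in GFPplus replicates 1, 2 and 3, against 6.53 and 6.48 in GFPminus replicates 1 and 2.

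Regions called in part of the GFPplus lists took a larger share of the neighbourhood of members than of the chromosomes as a whole, in a description with no test over regions. The rule placed members by calls of these same lists, so the shares are not independent of it. Within 10 kb of a member midpoint lay 574 union regions that were not GFPplus-only. Of these, 144 (25.1%) had a peak in 1 or 2 GFPplus and 0 GFPminus lists, against 22.6% of the 6534 such regions around isolated ones and 17.0% of the 178523 on all numbered chromosomes. Regions of 3 GFPplus and 1 or 2 GFPminus lists made up 11.7%, against 9.41% and 5.40%. Regions of 1 or 2 GFPminus lists alone made up 29.3%, against 33.9% and 44.3%. GFPminus-only regions made up 1.22% (7 of 574), against 0.87% and 0.88%. Counted by member, 152 of 274 (55.5%) had a region of 1 or 2 GFPplus lists within 10 kb, against 50.9% of isolated regions, and 85 (31.0%) had a region of all 6 lists, against 33.4%.

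**Figure D4:**
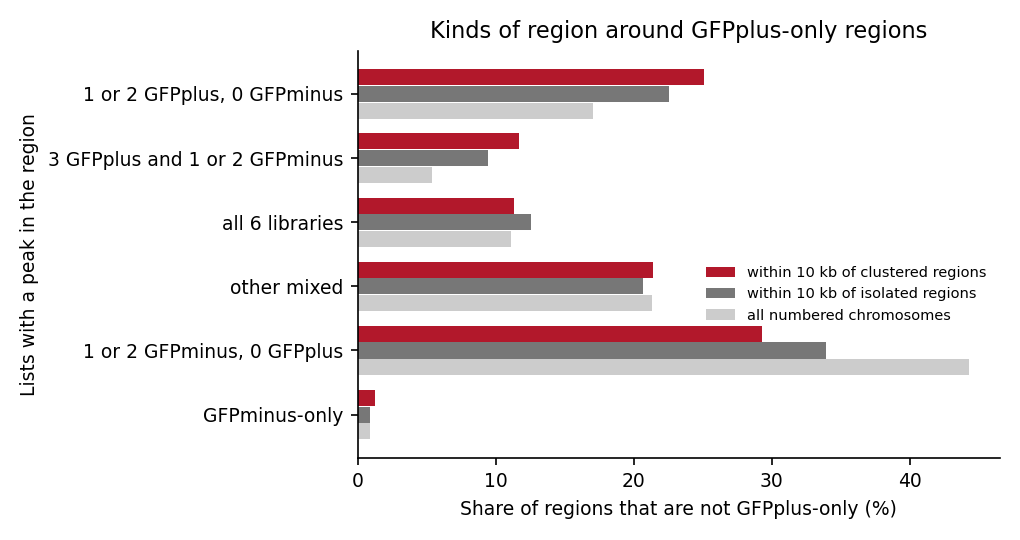
Union regions that are not GFPplus-only, by the lists that called them (y axis), as a share (x axis, percent) of those within 10 kb of clustered regions, within 10 kb of isolated regions and on all numbered chromosomes. Regions of 1 or 2 GFPplus lists take 25.1%, 22.6% and 17.0%, and regions of 1 or 2 GFPminus lists 29.3%, 33.9% and 44.3%.

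Library by library, GFPplus lists had a larger share of their other peaks near members. The rule placed members by GFPplus calls and missing GFPminus calls in these same lists. The comparison is therefore not independent of the rule, and its p-values describe the order of the libraries only. Of the peaks outside GFPplus-only regions, 0.453%, 0.392% and 0.445% lay within 10 kb of a member in GFPplus replicates 1, 2 and 3, against 0.317%, 0.300% and 0.319% in GFPminus replicates 1, 2 and 3. These were 310, 270 and 208 peaks in GFPplus and 347, 321 and 104 peaks in GFPminus libraries, so the higher count of the long GFPminus lists came with a lower share. The groups did not overlap (0.430% ± 0.033 and 0.312% ± 0.010, SD, n = 3), a ratio of 1.38 (exact two-sided permutation p = 0.1, the smallest possible). Within 1 kb of a member there were 34, 23 and 20 other peaks in GFPplus and 25, 15 and 2 in GFPminus replicates 1 to 3. With these left out, the difference of 0.118 percentage points became 0.090 (exact permutation p = 0.1). With peaks counted only where both groups had a call it was 0.046 (exact permutation p = 0.1). Both settings were chosen after the data were seen. Without 1 library the difference lay between 0.114 and 0.326, with the highest value without GFPplus replicate 2, where the members were more numerous.

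Isolated regions, which were chosen by the same calls, had the same pattern. Near them lay 4.76%, 4.25% and 4.59% of the other peaks of GFPplus replicates 1, 2 and 3 and 3.56%, 3.53% and 3.80% of those of GFPminus replicates 1, 2 and 3, a ratio of 1.25 (exact permutation p = 0.1, the smallest possible). Peaks near members over peaks near isolated regions came to 0.0950, 0.0924 and 0.0969 in GFPplus and 0.0891, 0.0851 and 0.0841 in GFPminus libraries. Each GFPplus value was above each GFPminus value (exact permutation p = 0.1, the smallest possible, in a test added after the data were seen). The rule set clustered apart from isolated regions by calls of these same lists within 10 kb. This comparison is therefore not independent of the rule either. It cannot settle whether the surplus of GFPplus calls is greater around clustered than around isolated regions. With 3 libraries per group it also could not reach the 0.05 level.

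**Figure D5:**
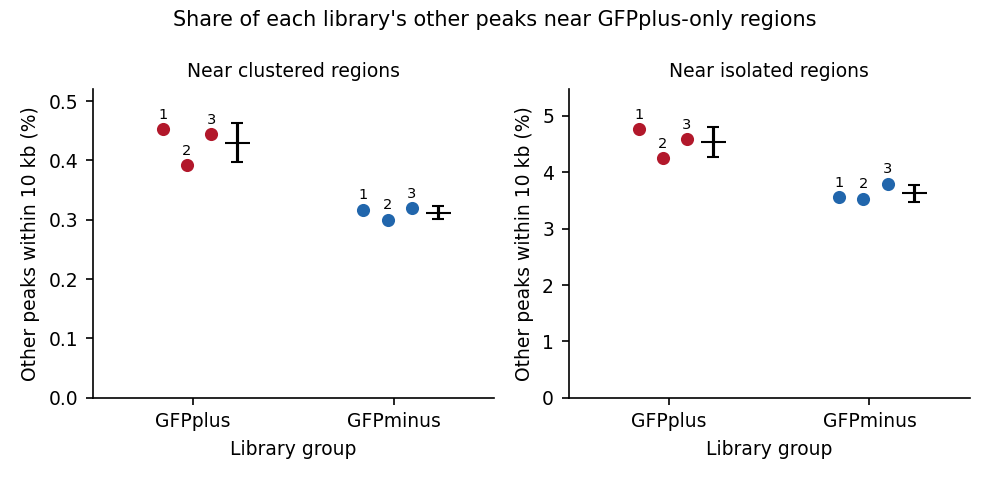
Percent of each library's peaks outside GFPplus-only regions that lie within 10 kb of clustered (left) or isolated (right) GFPplus-only regions (y axis), for GFPplus and GFPminus libraries (x axis). Points are libraries with their replicate number and bars give mean ± SD (n = 3); the GFPplus libraries lie above the GFPminus libraries in both panels, at 0.430% and 0.312% on the left.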

How the data were processed

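The files are 6 peak lists in narrowPeak layout, 1 per library, on the Zv9 (danRer7) build per the file headers. Per the submitters' processing notes, MACS2, deepTools, Bowtie2 2.1.0 and cutadapt 1.3 were used; their settings, as far as the sources used here go, are not given. The columns deposited for a peak, per the file headers and layout, hold its score, its fold as a ratio to the background of the caller, the −log10 of its p and of its q, and where its summit lies. The lists end near a −log10 q of 1.30. A list holds no reads, so no count model was used; exact binomial 95% intervals served only to judge whether a share moved under an alternative.

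Union regions, clusters and medians were computed with Python 3.11.15, numpy 2.4.6 and pandas 2.3.3. Where a list had several peaks in a region, the one with the highest −log10 p was taken. Libraries were compared with exact permutation tests over libraries (smallest p 0.1 for 3 against 3, 0.25 for 3 paired values); no test per region was run. The code was tested on simulated lists with planted clusters, and the union regions against bedtools 2.31.1. The rule for named items took the 8 clusters with most members, the 3 shortest and 3 longest pairs, 3 clusters with a region of all 6 lists inside (10 held 1 each, and ties went to the highest lowest −log10 p), the 8 members with the highest lowest −log10 p and the 3 widest members. The members, the lists and the rule were chosen with earlier results of these data known. The reference at hand is of another build, so genes and sequences were not used here.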

Additional observations from a re-analysis of the deposited data

How the results depend on the processing

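Membership depended on list length and on the distance limit; the cause was not tested. With a limit of 5 kb there were 138 members in 68 clusters (6.13% of the GFPplus-only regions), and with 20 kb 453 members in 208 clusters (20.1%). Joining regions with edges at most 500 bp apart gave 10.8%. Without 1 library there were 294 to 738 members in 142 to 343 clusters, or 12.6% to 17.5%. At a −log10 q of at least 5, 73 of the 274 members (26.6%) were among 230 clustered regions. The share of clusters with a region of all 6 lists inside was 2.94% at 5 kb, 18.8% at 20 kb, 0% at a −log10 q of at least 5 and 1.5% at equal length, where the last 2 settings keep fewer peaks by construction. The clustered minus isolated fold difference turned to −0.043 at 5 kb and was 0.012 at equal length and 0.014 at a −log10 q of at least 5, and the peak width difference to 0 at 5 kb, −1.33 bp at a −log10 q of at least 5 and −1.5 bp at equal length. The percentile difference of shared regions ranged from −2.02 to 6.77 without 1 library, and from 0.010 (equal length) to 11.9 (−log10 q of at least 5) in the other settings run. Each setting that changed the lists, the limit or the merging also changed the members and the shared regions near them. The share of other peaks near members stayed higher in GFPplus in each alternative run. No peak width was available for summits of fixed width.

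The labels do not say whether a replicate number marks an occasion shared by both groups, so numbers were not used to pair libraries in the main tests. Call deviations of same-numbered libraries correlated at −0.012, 0.020 and 0.011, which cannot settle whether they were collected together. With the replicate block the differences of 0.118 percentage points and 2.74 percentiles were the same, with exact permutation p = 0.25 (the smallest possible) and 0.75. Motifs and genes were not run. What an unlisted region held in reads is not known, which limits every statement on absence.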

Other observations

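Outside the numbered chromosomes, 35 GFPplus-only regions lay on unplaced scaffolds, and 2 of them, on 1 scaffold, were within 10 kb of each other. They were not counted among the members.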
